A study of Homo sapiens with 16 samples.

Results

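Collagens, laminins and integrins are the genes of the fibres and sheets that surround cells and of the receptors by which cells hold on to them. Members were the protein-coding genes with a collagen chain name (COL, a number, A, a number), a laminin chain name (LAMA, LAMB or LAMC and a number) or an integrin name (ITGA or ITGB and its suffix), in each of the authors' 4 deposited tables. The rule used names and listing in all 4 tables, and no fold change or p-value. The lowest mean normalised count listed differed between tables, from 2.46 to 6.82, so listing depended in part on level. It gave 62 genes, 29 collagens, 11 laminins and 22 integrins, of 13800 protein-coding genes listed in all 4 tables. Another 10 genes with such names (COL2A1, COL14A1, COL24A1, COL28A1, ITGB7, COL4A3, COL9A3, COL8A2, COL6A6 and COL25A1) were listed in some tables only and are described at the end.

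The cells were U2OS, an established human osteosarcoma line, and poly(A) RNA was sequenced. They had received a control siRNA (siControl) or an siRNA against the transcription factor RFX7 (siRFX7), and were treated with DMSO, the solvent, or with 10 µM Nutlin-3a for 24 h. Nutlin-3a blocks the binding of MDM2 to p53, which stabilises p53. The 4 groups, siControl DMSO, siControl Nutlin-3a, siRFX7 DMSO and siRFX7 Nutlin-3a, had 4 libraries each, 16 in all. All groups were transfected and came from this one line, and the siRNA sequences were not given in the sources used here.

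Collagen chains coil in groups of 3 into a triple helix. Fibrillar collagens build the ropes of bone, skin and tendon, and type IV collagen builds the mesh of basement membranes, the thin sheets under epithelia and around muscle and vessels. Laminins join one α, one β and one γ chain into a cross-shaped protein that starts such a sheet. Integrins pair an α with a β chain at the cell surface, bind collagen, laminin or fibronectin outside and link to the actin skeleton inside. Bone matrix made by osteoblasts, the lineage that osteosarcoma cells resemble, is mostly type I collagen, a helix of COL1A1 and COL1A2 chains.

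Each deposited table compared a pair of groups and held no value of a single library, so errors are the authors' standard errors (SE) of the log2 fold change over 4 and 4 libraries, and whether single libraries of 2 groups overlapped could not be seen. No label says that the 4 libraries of a group came from separate cultures, so the p-values measure the spread between these libraries. A gene was called when the authors' adjusted p, from DESeq2, was under 0.05. Base means (mean normalised counts per table) summed to between 2.79e+07 and 3.53e+07. RFX7 was lower in siRFX7 by the authors' deposited tables, at 18.6% of its siControl level under DMSO and 19.4% under Nutlin-3a. Known p53 targets rose with Nutlin-3a in siControl, CDKN1A by 3.24 ± 0.04 and MDM2 by 2.89 ± 0.04 on the log2 scale. In siRFX7 they rose by 2.98 ± 0.04 and 2.76 ± 0.04. Of the markers used to check the label, 7 of 8 mesenchymal genes were listed (base means 13.2 to 84577, VIM highest), as were 5 of 6 epithelial genes (61.7 to 24067), 3 of 3 endothelial genes (2.66 to 17.8) and 2 of 4 leukocyte genes (2.57 and 5.21). The mesenchymal markers include the members COL1A1 (39039) and COL1A2 (13.2). The highest epithelial marker, KRT8, was above the mesenchymal CDH2 (5912) and RUNX2 (432). The leukocyte marker PTPRC had a base mean of 5.21 and the endothelial marker PECAM1 of 2.66. In bulk RNA, fewer cells making a transcript and less of it per cell cannot be told apart.

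Levels under DMSO differed widely between members. They are group means computed from the base mean and log2 fold change of the table of Nutlin-3a over DMSO in siControl (the siControl table below) and, between genes, divided by the length of the longest GENCODE 29 transcript. ITGB1, the β chain shared by the largest integrin subfamily, was highest at 8764 normalised counts per kb. It was followed by COL1A1 at 5561, COL4A2 at 5439, ITGA3 at 4557, COL6A2 at 3515, ITGB5 at 3356, COL6A1 at 2966 and COL4A1 at 2521 per kb. LAMC1, the common γ chain, stood at 2103 and LAMB3 at 1786 per kb. Dividing by coding length instead kept ITGB1 and COL1A1 first and second and moved LAMB3 from rank 10 to rank 12. The partners of a multimer were far from equal in places. COL1A2, the second chain of type I collagen, had only 2.47 counts per kb against 5561 for COL1A1. LAMA3, the α chain that pairs with LAMB3 in the laminin of skin and gland epithelia, had 1.25 per kb against 1786. ITGB3 had 2.89 per kb beside 1180 for its partner ITGAV. COL19A1 was lowest, at 0.949 per kb.

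**Figure D1:**
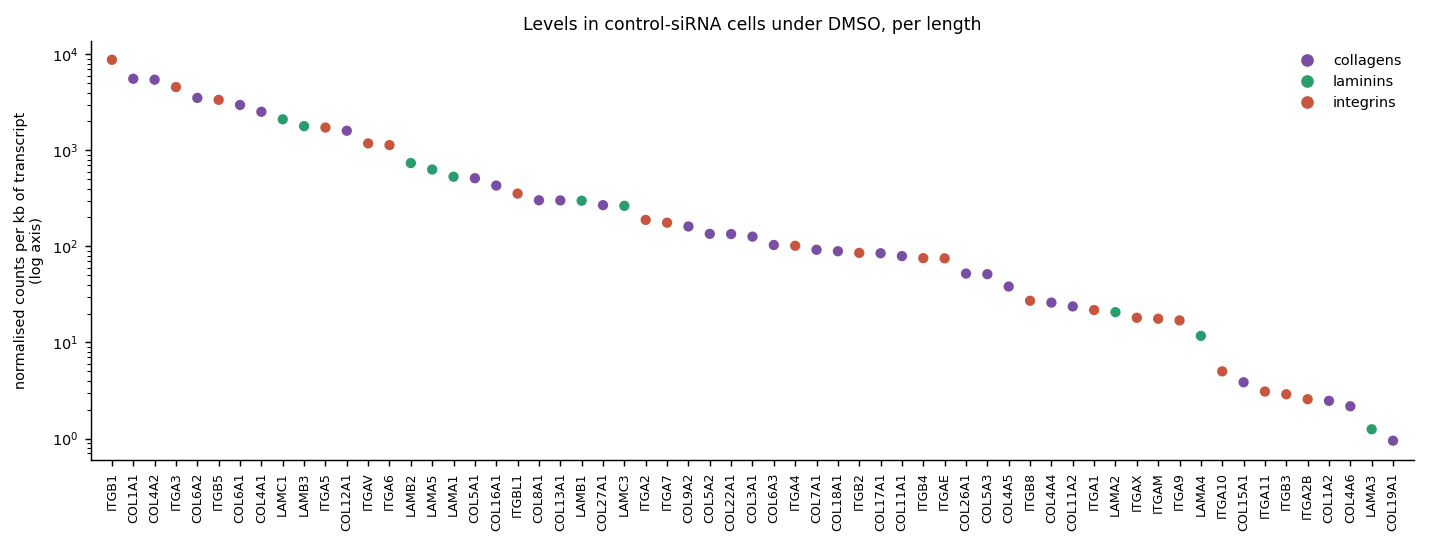
Level of the members in siControl cells under DMSO, in normalised counts per kb of the longest transcript (log axis), ordered from high to low and coloured by family. ITGB1 (8764), COL1A1 (5561) and COL4A2 (5439) lead, and COL1A2 (2.47), COL4A6 (2.17), LAMA3 (1.25) and COL19A1 (0.949) close the order.

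COL4A1 and COL4A2 encode the chains of the main basement membrane helix and leave one stretch of DNA in opposite directions. In RefSeq (GRCh38.p14) their starts on chromosome 13 lie 127 bases apart, at 110307157 for COL4A1 on the minus strand and 110307284 for COL4A2 on the plus strand. The COL4A2 promoter window is shown because it holds both starts, and because this pair of genes is read side by side below. It is chr13:110307034-110307333, plus strand, 250 bases before to 50 after the COL4A2 start, with the bases from one start to the other in capitals.
COL4A1/COL4A2 promoter: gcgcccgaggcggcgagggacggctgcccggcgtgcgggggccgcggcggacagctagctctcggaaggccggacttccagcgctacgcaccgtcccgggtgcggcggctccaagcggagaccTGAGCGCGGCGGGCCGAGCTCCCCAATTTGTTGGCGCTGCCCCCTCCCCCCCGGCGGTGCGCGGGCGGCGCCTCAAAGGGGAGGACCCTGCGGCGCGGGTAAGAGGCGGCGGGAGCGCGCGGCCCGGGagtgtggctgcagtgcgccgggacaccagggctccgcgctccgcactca
The 226 bases that both promoter windows share had a GC content of 76.5%. The capitals contain the box GGGCGG. Both genes were abundant, with levels of 16676 (COL4A1) and 35320 (COL4A2) normalised counts in siControl under DMSO.

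Most calls with Nutlin-3a were rises. Of 62 members, 34 were higher and 5 lower in siControl by the authors' deposited table, and again 34 higher and 5 lower in siRFX7. Across all genes tested, 18.3% were higher and 19.6% lower in siControl, and 18.7% and 20.3% in siRFX7. Among protein-coding genes in all 4 tables these shares were 23.8% and 28.4% in siControl and 24.1% and 27.4% in siRFX7. The members' shares were 54.8% higher and 8.06% lower in each background. Their median log2 fold change was 0.23 in siControl and 0.28 in siRFX7, against -0.01 and -0.00 in protein-coding genes. Among the 52 members with a base mean no lower than 100 in siControl, 33 were higher and 5 lower in siControl, against 2954 and 3772 of 11539 such protein-coding genes. Most changes were small: 13 of the 39 calls in siControl reached 0.5 on the log2 scale and 4 reached 1. All 3 families leaned the same way, with 16 higher and 3 lower of 29 collagens, 7 and 0 of 11 laminins and 11 and 2 of 22 integrins in siControl. In siRFX7 the counts were 15 and 3, 7 and 1, and 12 and 1.

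**Figure D2:**
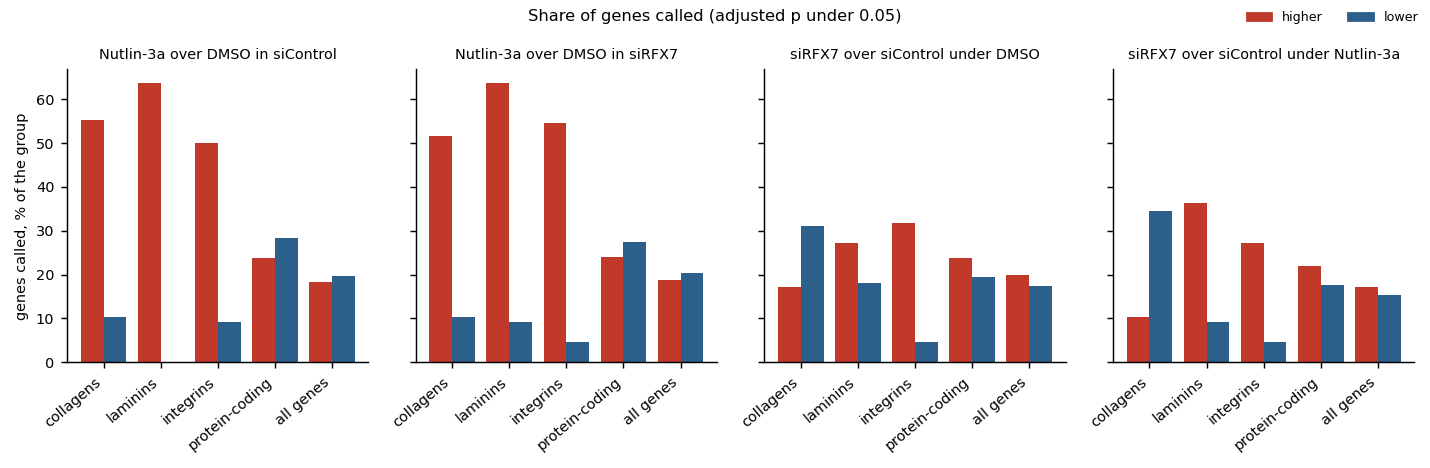
Share of genes called higher (red) and lower (blue) at an adjusted p under 0.05 in each of the authors' 4 deposited tables (y axis, % of the group), for the members by family, for protein-coding genes in all 4 tables and for all genes tested. With Nutlin-3a in siControl 54.8% of all members were higher, against 23.8% of protein-coding genes in all 4 tables and 18.3% of all genes tested.

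The Nutlin-3a tables for siControl and siRFX7 share no library and can be set against each other. Of the 62 members, 35 were called in both and all 35 had the same sign, 31 higher and 4 lower (COL8A1, COL3A1, COL5A2 and ITGA4). Of 13800 protein-coding genes 5864 were called in both and 5849 of these had the same sign, so the shared sign is no trait of the members. Pearson's r across the 62 members was 0.85, against 0.90 across 13800 protein-coding genes, as a description, since genes are not independent replicates. Values below are log2 fold changes ± SE from the authors' deposited tables, siControl first and siRFX7 second unless stated.

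**Figure D3:**
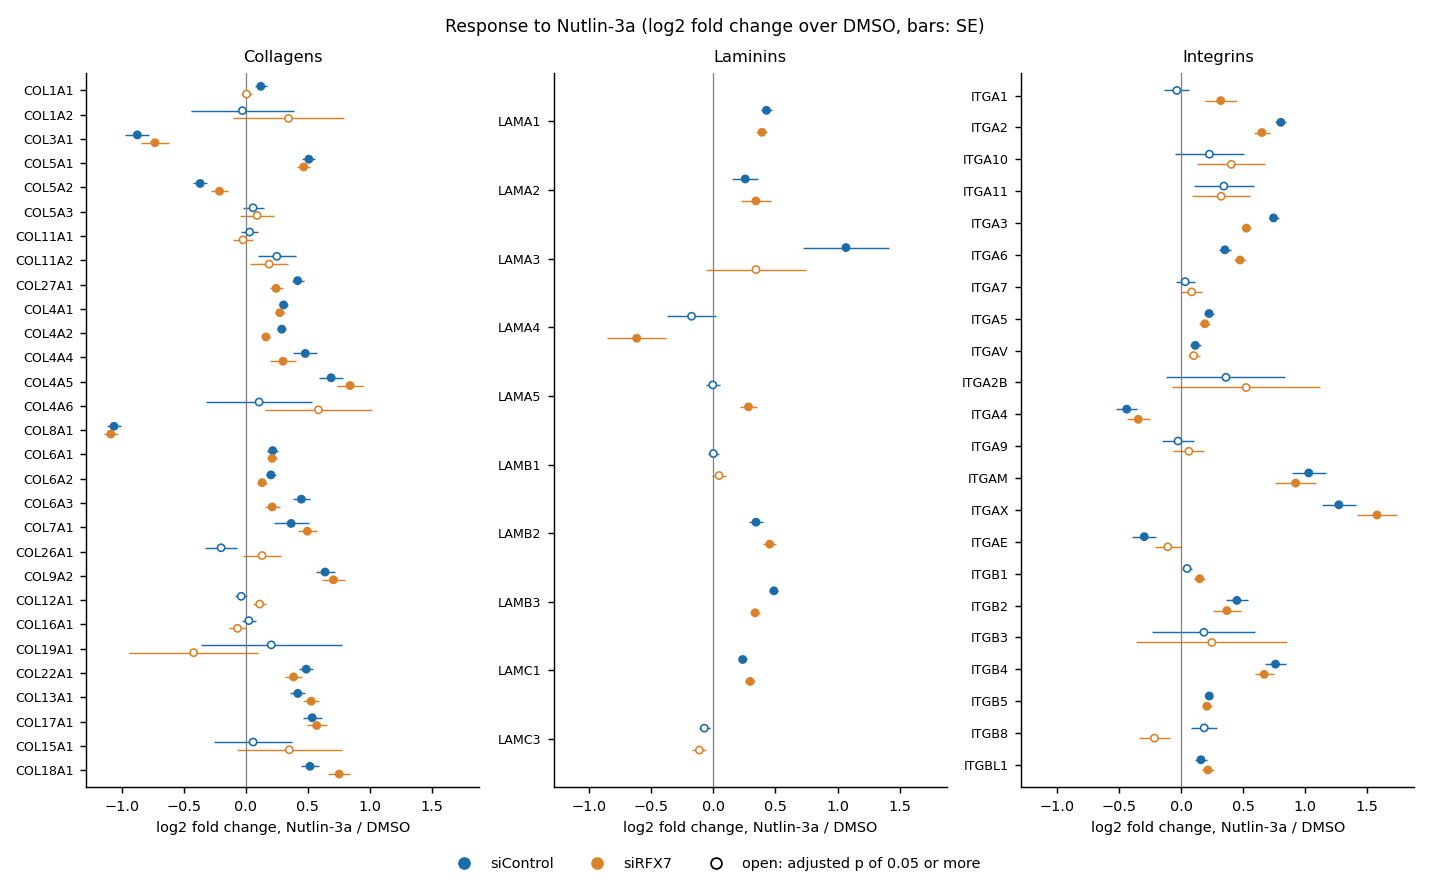
Log2 fold change with Nutlin-3a over DMSO (x axis) of the members in siControl (blue) and siRFX7 (orange), by family, with bars of 1 SE. Filled points had an adjusted p under 0.05. COL8A1 lies farthest to the left (-1.06 and -1.09) and ITGAX farthest to the right (1.27 and 1.58).

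Fibrillar collagens split. COL5A1, the chain of type V collagen that sets fibril width, rose by 0.51 ± 0.05 and 0.47 ± 0.05 per the authors' deposited tables, from a level of 4343 to 6174 in siControl. COL27A1, a fibrillar chain of growing cartilage, rose by 0.42 ± 0.05 and 0.24 ± 0.05. COL3A1, the chain of type III collagen in elastic tissues, fell from 701 to 382 normalised counts in siControl, a log2 change of -0.87 ± 0.10 (adjusted p 2.4e-18), with -0.73 ± 0.11 in siRFX7. Its neighbour COL5A2, the second type V chain, was lower too, at -0.37 ± 0.06 and -0.21 ± 0.07. The type V chains COL5A1 and COL5A2 thus moved in opposite directions, and the remaining chain COL5A3 was called in neither table, at 0.06 ± 0.08 and 0.09 ± 0.13. COL1A1, the collagen with the most counts per kb in siControl under DMSO, was at 0.12 ± 0.05 in siControl (adjusted p 0.039) and 0.01 ± 0.04 in siRFX7 (adjusted p 0.94). The cartilage chains COL11A1 and COL11A2 and the scarce COL1A2 passed in neither table.

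Of 6 network-forming collagens 4 rose in each background and 1 fell. The basement membrane pair shown above rose together, COL4A1 by 0.30 ± 0.04 and 0.27 ± 0.04 and COL4A2 by 0.29 ± 0.03 and 0.16 ± 0.03 per the authors' deposited tables. COL4A5 and COL4A4, chains of the tougher type IV mesh of kidney and lung, rose from lower levels. COL4A5 went from 248 to 399 normalised counts in siControl, 0.69 ± 0.09, and by 0.84 ± 0.10 in siRFX7, and COL4A4 by 0.48 ± 0.10 and 0.30 ± 0.10. COL4A6, whose start lies 347 bases from that of COL4A5 in GENCODE 29, had a base mean of 15.2 and no call. COL8A1, a short-chain collagen of vessel walls and the cornea, was the one that fell. Its level went from 1724 to 826 in siControl and from 2060 to 971 in siRFX7, log2 changes of -1.06 ± 0.05 (adjusted p 1.2e-84) and -1.09 ± 0.05 (adjusted p 3.8e-88), the lowest of all members.

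All 3 type VI collagen chains among the members, which form beaded filaments around cells, rose modestly in both authors' deposited tables. COL6A1 rose by 0.22 ± 0.04 and 0.21 ± 0.04, COL6A2 by 0.20 ± 0.04 and 0.13 ± 0.04, and COL6A3 by 0.45 ± 0.07 and 0.21 ± 0.06. COL7A1, the anchoring fibril that ties the epidermis to the dermis, rose by 0.37 ± 0.14 and 0.50 ± 0.08. COL26A1 was called in neither. Of the fibril-associated collagens, COL9A2, a cartilage chain, rose from 462 to 719 normalised counts, 0.64 ± 0.08 and 0.71 ± 0.10, and COL22A1, found at tissue junctions, by 0.49 ± 0.05 and 0.38 ± 0.07. COL12A1 and COL16A1, which coat fibrils, were called in neither table despite base means of 18517 and 2489, nor was the scarce COL19A1. Among collagens that span the membrane or carry cleavable ends, COL17A1 of the hemidesmosome, the rivet between basal epithelial cells and laminin, rose by 0.54 ± 0.08 and 0.57 ± 0.08. COL13A1, a membrane collagen of the nerve-muscle junction, rose by 0.42 ± 0.06 and 0.53 ± 0.06 per the authors' deposited tables. COL18A1, the source of endostatin, rose by 0.52 ± 0.07 and 0.75 ± 0.09, and its relative COL15A1, with a base mean of 21.6, was not called.

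Of 11 laminin chains 7 rose in each background. LAMB3, the β chain of an epithelial laminin, went from 7688 to 10777 normalised counts in siControl, 0.49 ± 0.04 (adjusted p 2.9e-40), and rose by 0.34 ± 0.04 in siRFX7, per the authors' deposited tables. Its α chain partner LAMA3 rose from a level of only 13.3 to 27.9 in siControl, 1.07 ± 0.35 (adjusted p 0.0068), and was not called in siRFX7, at 0.34 ± 0.40. LAMA1, the α chain of embryonic basement membranes, rose by 0.43 ± 0.04 and 0.39 ± 0.04, and LAMA2, the muscle chain, by 0.26 ± 0.10 and 0.34 ± 0.12. LAMB2, the β chain of mature kidney and synaptic membranes, rose by 0.34 ± 0.06 and 0.45 ± 0.05, and LAMC1 by 0.24 ± 0.03 and 0.30 ± 0.04. LAMB1 and LAMC3 stayed without a call, LAMB1 at -0.00 ± 0.04 and 0.05 ± 0.05 and LAMC3 at -0.07 ± 0.05 and -0.11 ± 0.06. LAMA5, the most abundant α chain here at 632 normalised counts per kb, was at -0.01 ± 0.06 in siControl and rose by 0.28 ± 0.07 in siRFX7. LAMA4, of vessel membranes, was at -0.18 ± 0.20 and fell by 0.62 on the log2 scale (SE 0.24, adjusted p 0.027) in siRFX7, with a base mean of 72.3 in the siControl table.

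ITGAX, the integrin chain CD11c best known from white blood cells, had the highest response of all members in both tables. It went from a level of 85.0 to 205 in siControl and from 77.1 to 230 in siRFX7, log2 changes of 1.27 ± 0.13 (adjusted p 6.3e-20) and 1.58 ± 0.16 (adjusted p 2.3e-22) per the authors' deposited tables. ITGAM, the related CD11b chain, went from 83.8 to 171 and from 85.5 to 162, that is 1.03 ± 0.14 and 0.92 ± 0.16. These genes are neighbours on chromosome 16, with 22.2 kb between them in GENCODE 29 (ITGAM at 31259967 to 31332892, ITGAX at 31355134 to 31382997, both on the plus strand). Their shared β chain ITGB2 rose by 0.45 ± 0.09 and 0.37 ± 0.11. Levels of this trio were low for the family, 18.1 normalised counts per kb for ITGAX, 17.7 for ITGAM and 85.6 for ITGB2 in siControl under DMSO. The leukocyte markers PTPRC (base mean 5.21) and CD68 (2.57) were near the lowest levels listed, and any part of other cells in these values was not tested. ITGAE, a chain of T cells in epithelia, was lower in siControl at -0.30 ± 0.10 and not called in siRFX7 at -0.11 ± 0.11.

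Of 4 collagen-binding α chains 1 rose in siControl and 2 in siRFX7, and of 3 laminin-binding α chains 2 rose in each. ITGA2, the collagen receptor of platelets and epithelia, went from 1485 to 2593 normalised counts in siControl, 0.80 ± 0.05 (adjusted p 1.5e-68), and rose by 0.65 ± 0.06 in siRFX7, per the authors' deposited tables. The neighbour on chromosome 5 and fellow collagen receptor ITGA1, 30.1 kb away, was at -0.03 ± 0.10 in siControl and rose by 0.32 ± 0.13 in siRFX7 (adjusted p 0.036). The cartilage and fibroblast chains ITGA10 and ITGA11, with base means of 28.6 and 35.7, were not called. ITGB4, the hemidesmosome β chain, rose by 0.76 ± 0.08 and 0.67 ± 0.08, and its partner ITGA6, a laminin receptor, by 0.35 ± 0.05 and 0.48 ± 0.05. ITGA3, the most abundant laminin-binding α chain, went from 22276 to 37340 in siControl, 0.75 ± 0.04 (adjusted p 8.1e-74), and rose by 0.53 ± 0.04 in siRFX7. The muscle chain ITGA7 passed in neither table. Of chains that bind the RGD motif of fibronectin and vitronectin, ITGA5 rose by 0.23 ± 0.04 and 0.19 ± 0.04 and ITGB5 by 0.23 ± 0.03 and 0.21 ± 0.04. ITGAV was at 0.11 ± 0.04 (adjusted p 0.020) and 0.10 ± 0.05 (adjusted p 0.076). ITGA4, which binds VCAM1 and fibronectin, was lower at -0.44 ± 0.08 and -0.34 ± 0.09. ITGBL1, a secreted protein that resembles the β chain stalk, rose by 0.16 ± 0.05 and 0.22 ± 0.05. ITGB1 was at 0.05 ± 0.04 in siControl and rose by 0.15 ± 0.04 in siRFX7, while ITGB8, ITGB3, ITGA9 and the platelet chain ITGA2B were called in neither table.

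The second question of the design was what siRFX7 changed. In the authors' deposited table for DMSO, 15 of 62 members were higher and 12 lower with siRFX7, and under Nutlin-3a 13 were higher and 12 lower. Across all genes tested the shares were 19.9% higher and 17.5% lower under DMSO, and 17.2% and 15.4% under Nutlin-3a. In protein-coding genes in all 4 tables they were 23.8% and 19.5% under DMSO, and 22% and 17.7% under Nutlin-3a. The members' shares, 24.2% and 19.4% under DMSO and 21.0% and 19.4% under Nutlin-3a, were close to these backgrounds. Within the family the direction differed. Of 29 collagens 5 were higher and 9 lower under DMSO, and 3 and 10 under Nutlin-3a. Among 22 integrins 7 were higher and 1 lower under DMSO, and 6 and 1 under Nutlin-3a, and among 11 laminins 3 and 2, and 4 and 1. The median log2 fold change was -0.05 for collagens and 0.06 for integrins under DMSO, and -0.09 and 0.14 under Nutlin-3a. The difference between the families was not tested. These tables share no library, and 20 members were called in both with the same sign in all 20, 11 higher and 9 lower. That is 32.3% of the members, near the 31.1% of protein-coding genes, 4292 of 13800, of which 4267 had the same sign.

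**Figure D4:**
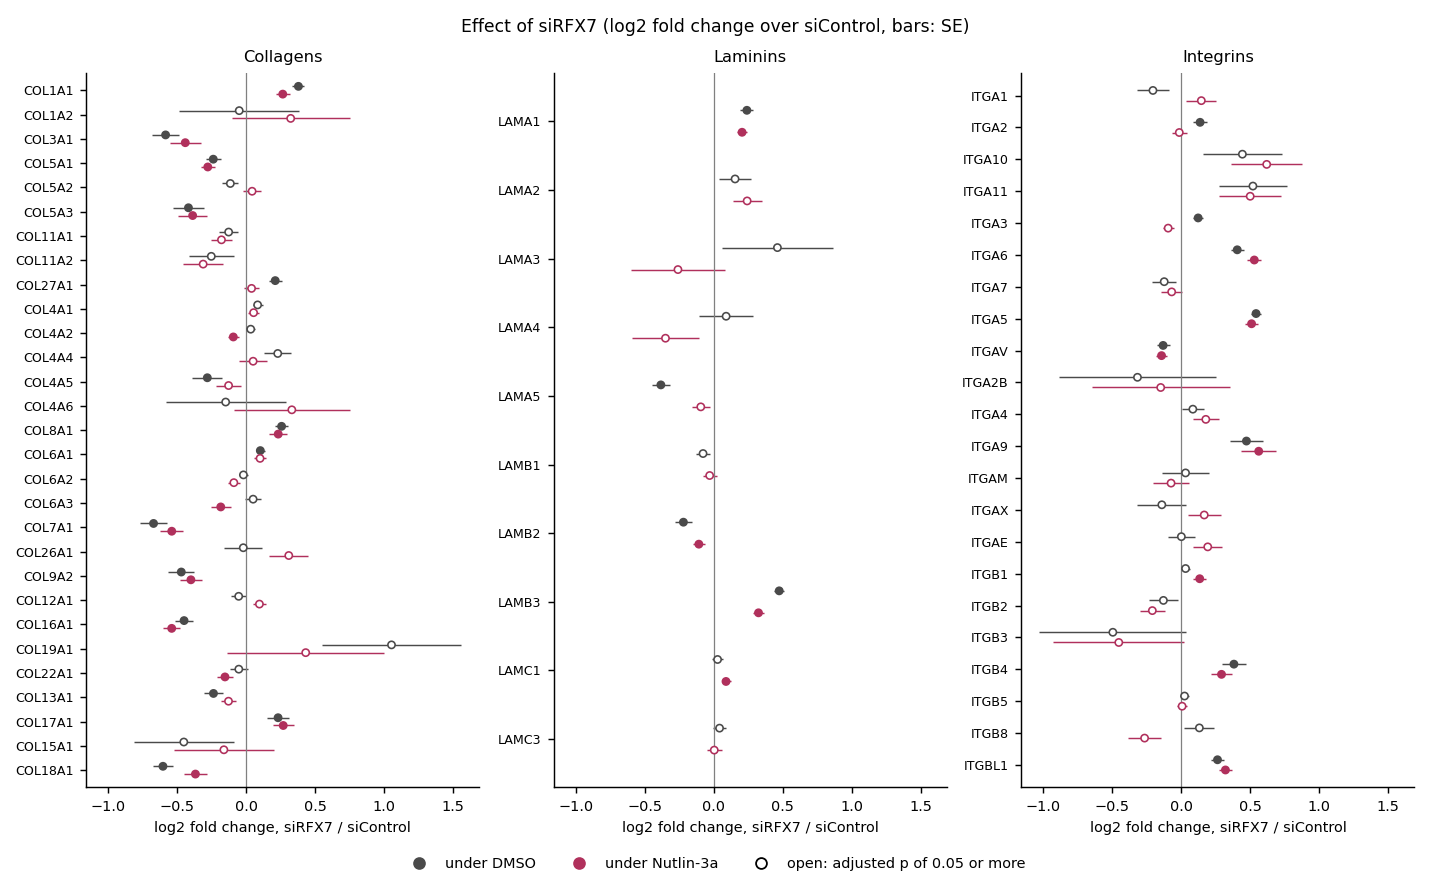
Log2 fold change with siRFX7 over siControl (x axis) of the members under DMSO (grey) and under Nutlin-3a (magenta), by family, with bars of 1 SE. Filled points had an adjusted p under 0.05. COL7A1, COL18A1 and COL3A1 lie to the left and ITGA5, ITGA6, ITGA9 and LAMB3 to the right under both treatments.

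Values in this paragraph are siRFX7 over siControl per the authors' deposited tables, under DMSO first and under Nutlin-3a second. COL7A1 was lowest under DMSO, at -0.67 ± 0.10 (adjusted p 5.9e-11) and -0.54 ± 0.08, with levels of 856 in siControl and 537 in siRFX7 under DMSO. COL18A1 followed at -0.60 ± 0.08 and -0.37 ± 0.08, and COL3A1 at -0.58 ± 0.10 and -0.44 ± 0.11. The fibril-associated COL9A2 was lower at -0.47 ± 0.09 and -0.40 ± 0.08 and COL16A1 at -0.45 ± 0.06 and -0.54 ± 0.06, level with COL7A1 under Nutlin-3a. COL16A1 was called in neither Nutlin-3a table, and its levels under DMSO and Nutlin-3a were 2468 and 2510 in siControl and 1807 and 1727 in siRFX7. Type V chains COL5A3 (-0.42 ± 0.11 and -0.39 ± 0.10) and COL5A1 (-0.24 ± 0.05 and -0.28 ± 0.05) were lower, and COL5A2 passed under neither treatment. LAMB2 was lower at -0.22 ± 0.06 and -0.11 ± 0.04, and ITGAV at -0.13 ± 0.05 and -0.14 ± 0.04, the one integrin lower under both. Calls under one treatment alone were those of LAMA5 (-0.38 ± 0.07), COL4A5 (-0.28 ± 0.11) and COL13A1 (-0.24 ± 0.07) under DMSO, and of COL6A3 (-0.18 ± 0.07), COL22A1 (-0.15 ± 0.06) and COL4A2 (-0.09 ± 0.04) under Nutlin-3a.

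ITGA5, the main fibronectin receptor chain, had the highest value of the members called with siRFX7 under DMSO. It went from 7675 to 11172 normalised counts under DMSO and from 8975 to 12773 under Nutlin-3a, 0.54 ± 0.03 (adjusted p 2.3e-53) and 0.51 ± 0.05 (adjusted p 7.6e-26) per the authors' deposited tables. ITGA9, a receptor for tenascin and osteopontin, rose by 0.47 ± 0.12 and 0.56 ± 0.13, from a base mean of only 133. LAMB3 rose by 0.47 ± 0.03 and 0.32 ± 0.04. The hemidesmosome genes rose too, ITGA6 by 0.41 ± 0.05 and 0.53 ± 0.05, ITGB4 by 0.38 ± 0.09 and 0.29 ± 0.07 and COL17A1 by 0.23 ± 0.08 and 0.27 ± 0.08. COL1A1 rose by 0.38 ± 0.04 and 0.27 ± 0.05, from a level of 37409 to 48659 under DMSO. Also higher under both treatments were COL8A1 (0.26 ± 0.04 and 0.23 ± 0.06), LAMA1 (0.24 ± 0.05 and 0.21 ± 0.04) and ITGBL1 (0.26 ± 0.05 and 0.32 ± 0.05). Calls under DMSO alone were COL27A1 (0.21 ± 0.05), ITGA2 (0.14 ± 0.05), ITGA3 (0.12 ± 0.04) and COL6A1 (0.10 ± 0.03), and under Nutlin-3a alone ITGB1 (0.13 ± 0.05) and LAMC1 (0.09 ± 0.03). Centring each table on its protein-coding median ended the calls of ITGA2 and LAMC1. COL19A1 had the highest value under DMSO, 1.05 ± 0.51, with a base mean of 6.37 and an adjusted p of 0.089.

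The comparisons with Nutlin-3a and with siRFX7 share libraries, so they are set side by side by level and not counted together. LAMB3 stood at 7688, 10777, 10684 and 13496 normalised counts in siControl DMSO, siControl Nutlin-3a, siRFX7 DMSO and siRFX7 Nutlin-3a. ITGB4 stood at 447, 757, 582 and 926, and ITGA6 at 6372, 8140, 8438 and 11744. Each was lowest in siControl DMSO and highest in siRFX7 Nutlin-3a. COL18A1, at 587, 839, 386 and 651, and COL7A1, at 856, 1102, 537 and 758, were instead lowest in siRFX7 DMSO and highest in siControl Nutlin-3a. COL3A1 stood at 701, 382, 468 and 282, lowest where both agents were present. These levels are on the scale of the siControl table, carried over with the deposited log2 fold changes. The siControl DMSO level could be had from 2 tables, and after a constant shift these values differed by an SD of 0.0056 on the log2 scale over members.

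Whether siRFX7 altered the response to Nutlin-3a was tested by the difference of both responses, siRFX7 minus siControl, with a normal p adjusted by Benjamini-Hochberg over 21339 genes. Of 62 members 0 were higher and 1 lower, against 0.173% and 0.764% of all genes tested and 0.232% and 1.11% of protein-coding genes in all 4 tables. At an unadjusted p under 0.05, 4 members were higher and 7 lower (6.45% and 11.3%), against 528 and 821 of all genes tested (2.47% and 3.85%) and 453 and 687 of protein-coding genes (3.28% and 4.98%). The member called was ITGA3, at -0.22 ± 0.05 (95% interval -0.33 to -0.11, adjusted p 0.011). Its level was 22276 in siControl and 24237 in siRFX7 under DMSO, and 37340 and 34944 under Nutlin-3a. With siRFX7 it was thus higher under DMSO (0.12 ± 0.04, adjusted p 0.0032) and not called under Nutlin-3a (-0.10 ± 0.04, adjusted p 0.057) per the authors' deposited tables. The rise with Nutlin-3a was 1.68-fold in siControl and 1.44-fold in siRFX7. By the same test CDKN1A, not a member, had a difference of -0.26 ± 0.05 (adjusted p 0.00031). Under a Holm adjustment or an adjusted p under 0.01, ITGA3 was no longer called. LAMA5 showed 0.29 ± 0.09 (95% interval 0.11 to 0.47) with an adjusted p of 0.13, and LAMB3 -0.15 ± 0.06 with 0.28. ITGB8 differed by -0.40 ± 0.16 (95% interval -0.72 to -0.08, adjusted p 0.46). For the other members the intervals bound the difference rather than show equal responses. That of COL8A1 ran from -0.18 to 0.12 and that of ITGAX from -0.10 to 0.71.

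**Figure D5:**
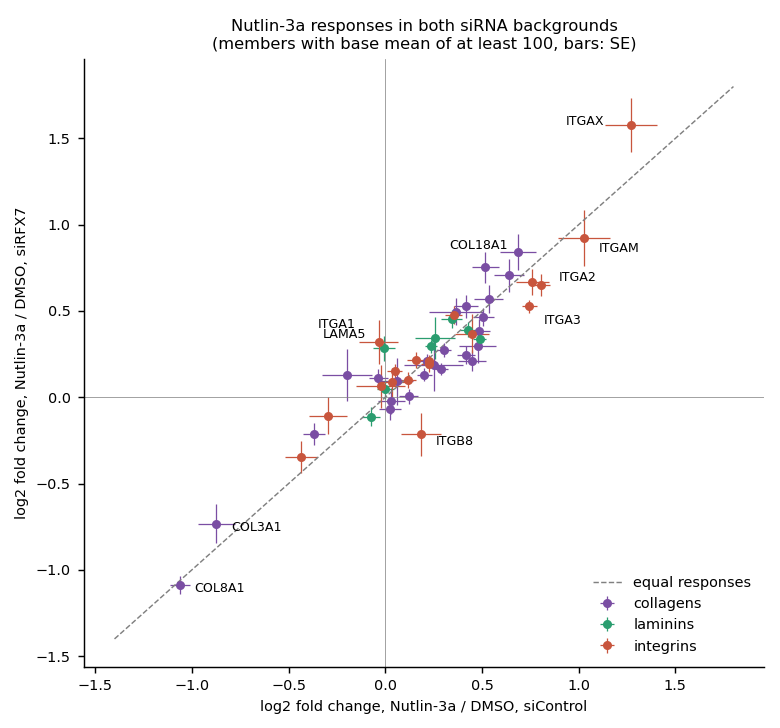
Nutlin-3a response in siControl (x axis) against that in siRFX7 (y axis), as log2 fold changes with bars of 1 SE, for members with a base mean no lower than 100 in siControl. The dashed line marks equal responses, and ITGA3 (0.75 and 0.53), below it, is the one member whose difference had an adjusted p under 0.05.

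In 16 members no table gave a call, and 8 of these had a base mean under 100 (COL1A2, COL4A6, COL19A1, COL15A1, ITGA10, ITGA11, ITGA2B and ITGB3). For these the SE was large, such as 0.42 for COL1A2 with Nutlin-3a in siControl, so a change of 0.44, the median size of the members' calls there, was not detectable at this depth. The others were COL12A1, COL11A1, COL11A2, COL26A1, LAMB1, LAMC3, ITGA7 and ITGB8. COL12A1 and COL11A1 gained a call under centring, and COL11A1 and ITGA10 when p-values were adjusted over protein-coding genes alone.

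Several members lie beside one another in the genome, in GENCODE 29 coordinates on GRCh38. COL3A1 (chromosome 2, 188974320 to 189012746, plus strand) and COL5A2 (189031896 to 189225312, minus strand) end 19.1 kb apart and were both lower with Nutlin-3a. COL6A1 and COL6A2 follow each other on chromosome 21, 93.0 kb apart, and both rose. By contrast ITGA3 and COL1A1, 92.8 kb apart on chromosome 17, responded by 0.75 ± 0.04 and 0.12 ± 0.05 in siControl. ITGA1 and ITGA2 differed as given above.

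Sequence features of the members were described without a test. RefSeq promoters (GRCh38.p14) matched 45 of 62 members, with 58 windows of 300 bases, against 35116 windows of all genes. A p53 full site (a pair of half-sites, each with C as the fourth and G as the seventh base, and at most 2 mismatches to the consensus at the other bases) was found in 1 of 58 windows, that of ITGA2B, which passed in no table, against 0.971% of all windows. It begins at position -210 relative to the start, within chr17:44389600-44389899, minus strand, and is given because it is the one match.
ITGA2B p53 site: AGACAAGTATGGACCAGTTC
The half-site GTTGCC of the RFX X-box, on either strand, was in 12.1% of members' windows (COL11A2, COL4A5, COL9A2, ITGA1, ITGA6 and LAMC1) against 12.2% of all. GGGCGG, on either strand, was in 63.8% against 45.0%, and TATAAA in 12.1% against 11.5%. The heptamer GTATCTA, picked in an earlier scan of these same tables, was in the 3′ UTR of 0 of 9 members lower in both siRFX7 tables. It was in 19.1% of 1828 protein-coding genes lower in both, and in 6.61% of 13501 protein-coding genes with a 3′ UTR. The hexamer GACGTA, picked likewise, was in 0 of 10 members higher in both whose transcript used here has a 3′ UTR. It was in 9.72% of 2377 genes higher in both, and in 3.93% of the 13501. Since the words were picked from these data, their shares among genes lower or higher in both are not independent of that choice. With 9 and 10 members, absence says little. The transcript used was that with the longest coding sequence. For ITGA6 it has no annotated 3′ UTR, so ITGA6 was left out, and its longest transcript, of 5618 bases, was not searched. Motifs absent from these windows say nothing of binding elsewhere.

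Members lower with siRFX7 had the highest GC content. Their median transcript GC content was 61.6% under DMSO and 61.2% under Nutlin-3a, and that of members higher 55.9% and 50.5%. Members without a call had 53.2% and 54.3%, so under DMSO they lay below the members higher. Most members lower were collagens, and GC content was not compared within each family. Spearman's rho between GC content and the siRFX7 log2 fold change over the 62 members was -0.35 under DMSO and -0.29 under Nutlin-3a. Over 11341 protein-coding genes with a base mean no lower than 100 and an annotated 3′ UTR in the transcript used, it was 0.03 and -0.04. The members were not limited to those with a 3′ UTR. Over the 52 members with such a base mean it was -0.32 under DMSO and -0.32 under Nutlin-3a. These are descriptions across genes of the same libraries, and the part of base composition in the collagen counts was not tested.

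Genes that work with the family were taken from 4 lists. Of protein-coding genes in all 4 tables, 23.8% were higher and 28.4% lower with Nutlin-3a in siControl, and 24.1% and 27.4% in siRFX7. With siRFX7 these shares were 23.8% and 19.5% under DMSO, and 22% and 17.7% under Nutlin-3a. Shares of each list are given in brackets, and their distance from these backgrounds was not tested. Of 30 collagen processing enzymes in all 4 tables, 14 were higher and 5 lower (46.7% and 16.7%) with Nutlin-3a in siControl by the authors' deposited table. LOXL4, a lysyl oxidase that crosslinks collagen, rose by 1.14 ± 0.07, LOXL1 by 0.49 ± 0.06 and BMP1, which trims procollagen, by 0.47 ± 0.06. SERPINH1, the collagen chaperone HSP47, was lower at -0.26 ± 0.04 and the procollagen protease ADAMTS3 at -0.42 ± 0.06. The counts were 11 and 6 (36.7% and 20%) with Nutlin-3a in siRFX7. With siRFX7 they were 8 and 7 (26.7% and 23.3%) under DMSO, and 10 and 6 (33.3% and 20%) under Nutlin-3a. LOX rose by 0.61 ± 0.06 under DMSO and 0.69 ± 0.05 under Nutlin-3a, and P3H2, a prolyl hydroxylase of basement membrane collagen, was lower at -0.69 ± 0.08 and -0.94 ± 0.09 per the authors' deposited tables.

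Of 28 other matrix proteins and integrin ligands, 12 were higher and 6 lower (42.9% and 21.4%) with Nutlin-3a in siControl. THBS3 rose by 0.76 ± 0.09, NTN4, a netrin that binds laminin, by 0.68 ± 0.09 and HSPG2 (perlecan) by 0.46 ± 0.05, and THBS1, the matrix protein thrombospondin, was lower at -0.70 ± 0.05 in the authors' deposited table. Fibronectin, FN1, was at 0.04 ± 0.05 with Nutlin-3a in siControl and rose by 0.19 ± 0.05 with siRFX7 under DMSO. SPP1, osteopontin, a ligand of ITGA9 and ITGAV integrins, was lower with siRFX7 at -0.87 ± 0.16 under DMSO and -0.60 ± 0.13 under Nutlin-3a. The list as a whole had 11 higher and 7 lower (39.3% and 25%) with Nutlin-3a in siRFX7. With siRFX7 it had 12 and 7 (42.9% and 25%) under DMSO, and 8 and 7 (28.6% and 25%) under Nutlin-3a.

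On the inner side of the membrane, 11 of 44 integrin adaptors were higher and 12 lower (25.0% and 27.3%) with Nutlin-3a in siControl. These shares were close to those of protein-coding genes, and the list's median log2 fold change was 0.01. PARVB and PARVG, which join integrins to actin, rose by 0.69 ± 0.06 and 0.58 ± 0.05, and TNS3, a tensin, and KANK2 were lower at -0.67 ± 0.05 and -0.61 ± 0.05 in the authors' deposited table. Called or not, the list ran from -0.67 to 0.81 there, so the genes named are not all its extremes. In siRFX7 the counts with Nutlin-3a were 10 and 13 (22.7% and 29.5%). With siRFX7 18 were higher and 8 lower (40.9% and 18.2%) under DMSO, and 18 and 7 (40.9% and 15.9%) under Nutlin-3a. Higher under DMSO were focal adhesion kinase PTK2 (0.52 ± 0.03) and its partner CRK (0.54 ± 0.05), and vinculin, VCL, was lower at -0.41 ± 0.03. Called or not, the list ran from -0.70 to 0.54 with siRFX7 under DMSO. Of 14 other matrix receptors, 8 were higher and 2 lower (57.1% and 14.3%) with Nutlin-3a in siControl. The syndecans SDC1 and SDC2 moved apart, at 1.02 ± 0.04 and -0.87 ± 0.06, and CD44, the hyaluronan receptor, rose by 0.53 ± 0.04. This list had 7 higher and 3 lower (50% and 21.4%) with Nutlin-3a in siRFX7. With siRFX7 it had 5 and 3 (35.7% and 21.4%) under DMSO, and 4 and 3 (28.6% and 21.4%) under Nutlin-3a.

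The 10 genes listed in some tables only had base means under 10 in the siControl table, and 9 of them had no call in any table that listed them. COL25A1, a membrane collagen of neurons, was the exception, with a base mean of 6.40. It rose with Nutlin-3a by 1.502 ± 0.62 (adjusted p 0.042) in siControl and 3.25 ± 0.82 (adjusted p 0.00031) in siRFX7, per the authors' deposited tables.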

How the data were processed

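Poly(A) RNA of U2OS cells was sequenced in 16 libraries, 4 per group, made from 500 ng of total RNA with a TruSeq stranded kit, per the labels' protocols. Samples were grouped by title. Per the submitters' processing notes, reads were handled with bcl2fastq 2.19.1.403, Trimmomatic 0.39, cutadapt 2.10, FastQC 0.11.9, SAMtools 1.10, Picard, featureCounts 1.6.5 and DESeq2 1.20.0 on hg38; the aligner and the annotation were not given in the sources used here. The authors deposited 4 comparison tables. Per the file headers, each holds a base mean (a signal, the mean normalised count), a log2 fold change with its standard error, a Wald score, a p-value and an adjusted p-value. Whether log2 fold changes were shrunken was not stated. The deposited adjusted p equalled a Benjamini-Hochberg adjustment over each table. The direction of each table was read from its name and checked on RFX7, CDKN1A and MDM2, so RFX7's fall is not independent of it.

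From these values, calls were counted at an adjusted p under 0.05. Group levels were derived from base mean and log2 fold change, assuming equal groups and unshrunken values. The difference of the responses (siRFX7 minus siControl) used the root of the summed squared standard errors and a two-sided normal p. Depth per library cannot be read from the tables. Named members followed a rule: up to 12 highest and 12 lowest calls per comparison, plus partner subunits; of each related list up to 4 called genes per direction. FN1 was named outside the rule, as the main fibronectin gene, after its values were seen. The values of 1 member, which the counts include, are not reported here. The members, lists and sequence words were chosen with earlier results of these data known. Alternatives were stricter thresholds, a base mean limit, Holm adjustment, protein-coding genes only, centring and inflated errors. Python 3.11.15, pandas 2.3.3, numpy 2.4.6, scipy 1.17.1 and matplotlib 3.10.9 were used, with GENCODE 29 and RefSeq sequences.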

Additional observations from a re-analysis of the deposited data

Results flagged for a closer look

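Responses to Nutlin-3a were unequal in both backgrounds, by the normal test of the difference itself with Benjamini-Hochberg adjustment, for ITGA3 and for 3 genes of the related lists. ITGA3, a laminin-binding integrin chain, had a difference (siRFX7 minus siControl) of -0.22 ± 0.05 (SE; adjusted p 0.011), with responses of 0.75 ± 0.04 in siControl and 0.53 ± 0.04 in siRFX7. NEDD9, an adaptor of focal adhesions, had a difference of -0.59 ± 0.09 (adjusted p 1.77e-08), since it rose by 0.34 ± 0.06 in siControl and was lower at -0.25 ± 0.06 in siRFX7. TGFBI, a matrix protein that binds integrins, differed by -0.30 ± 0.06 (adjusted p 0.00048), at -0.00 ± 0.04 in siControl and -0.31 ± 0.04 in siRFX7. CD44, the hyaluronan receptor, differed by -0.27 ± 0.07 (adjusted p 0.015), with rises of 0.53 ± 0.04 and 0.26 ± 0.05. In all 4 the response was lower in siRFX7, the more frequent direction over all genes tested, where 163 differences were called lower and 37 higher. The 3 genes were 2.59% of the 116 listed, all protein-coding, against 1.11% of protein-coding genes in all 4 tables called lower and 0.764% of all genes tested. What lies behind these differences was not tested.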

How the results depend on the processing

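No paired analysis was possible because the tables hold no values of single libraries; leaving out single replicates was not run for the same reason. Of 64 alternative counts of called members, 48 stayed within 1.5 times the main count and 16 fell further below it. The 48 include the members called higher in the difference of the responses, 0 in the main count and in every alternative. A log2 change of at least 0.5 left, with Nutlin-3a, 11 higher and 2 lower in siControl and 10 and 3 in siRFX7. The same limit left, with siRFX7, 1 higher and 3 lower under DMSO and 3 and 2 under Nutlin-3a. Holm adjustment left 2 lower with Nutlin-3a in siRFX7, 7 higher and 6 lower with siRFX7 under DMSO, and 6 and 4 under Nutlin-3a. For the difference of the responses, the 1 lower member, ITGA3, became 0 under an adjusted p under 0.01, a size of at least 0.5 or Holm adjustment, and it stayed called under the other alternatives run. Fewer genes pass stricter rules by construction. Centring removed a median of at most 0.03 on the log2 scale and added COL11A1, COL13A1, ITGA3 and ITGB2 to the members lower with siRFX7 under Nutlin-3a, from 12 to 16, while LAMC1 left the 13 higher. It also added COL12A1 and ITGAV to the members higher with Nutlin-3a in siRFX7 (34 to 36) and took ITGA2 from those higher with siRFX7 under DMSO (15 to 14). Adjusting over protein-coding genes alone added, with siRFX7 under Nutlin-3a, COL11A1 and ITGA3 to those lower and ITGA10 to those higher, 14 each, and COL4A4 to those higher under DMSO (15 to 16). Of 131 called values of single members, 51 lost their call under Holm adjustment, and 2 of these also under centring. Ranks of the 10 highest levels per length moved in 8 cases by coding length.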
